A study of Mus musculus with 8 samples.

Results

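Predicted mouse genes with the most counts were described in EO771, a cell line from a mouse mammary tumour. A gene was taken when its symbol was "Gm" followed by a number and its mean count over the 8 libraries was at least 100, and 12 Gm genes (Gm44148, Gm18301, Gm39008, Gm51913, Gm52209, Gm51915, Gm51705, Gm30635, Gm671, Gm51671, Gm51785 and Gm30541) were left out by name, 10 of which had a mean of at least 100. This rule selected 436 of the 49997 genes of the count table, and 21792 of those genes had a Gm symbol. The members were thus chosen by their measured mean count, so their abundance is a description and carries no test. Total RNA was sequenced from 4 groups of 2 libraries. Vehicle cells received 2% DMSO in saline, and 12-HETE cells received 100 nM 12-HETE, a lipid made from arachidonic acid by 12-lipoxygenase, for 48 h (replicates 4 and 5 of each). Vector cells were transduced with an empty vector, and ADAR1 p150 cells with a vector that overexpresses the long isoform of ADAR1, the enzyme that converts adenosine to inosine in double-stranded RNA (replicates 1 and 2 of each). The study describes its editing comparison of the same 4 conditions as 2 independent experiments, while the labels of the libraries do not say that the 2 of a group came from separate cultures. The p-values measure the spread between these libraries. The promoter of the overexpression vector, and whether the transduced cells were 1 clone, are not given in the sources used here.

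Gm symbols are placeholder names that mouse genome annotators give to gene models known mainly from sequence. Many of these models are long non-coding RNAs (lncRNAs), others are pseudogenes, and some are predicted to encode protein. Antisense lncRNAs lie across a known gene on the opposite DNA strand. Pairs of sense and antisense transcripts can form double-stranded RNA, the substrate of ADAR1. Telling a sense from an antisense transcript needs a library that keeps the strand of the RNA and a counting step that uses it. The sources disagree on the library kit, and the strand setting used for counting is not given in the sources used here. For that reason, reads of a member and of the gene across from it cannot be told apart in this table, and the values below are counts assigned to a member.

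The libraries held 1101767 to 1537037 counts. The gene AY036118 alone took 44.4% to 50.3% of each. Adar, the gene of ADAR1, had 5 and 5 counts in vehicle cells, 7 and 6 after 12-HETE, 2 and 8 in vector cells, and 181 and 140 under ADAR1 p150, and its log2 fold change was 4.68 for ADAR1 p150 against vector (adjusted p = 6.4e-14) and 0.18 for 12-HETE against vehicle (adjusted p = 0.855). The 9 mammary epithelial markers summed to 233 to 419 counts per library, mostly Krt8, with Cdh1 at 0 in all 8 libraries. Leukocyte markers summed to 22 to 52 counts, fibroblast markers to 10 to 60, endothelial markers to 1 to 12 and adipocyte markers to 0 to 1. The 2 mitochondrial ribosomal RNAs, taken as a sign of RNA quality, summed to 199 to 421 counts with vehicle, 34 to 152 with 12-HETE, 118 to 274 with vector and 34 to 41 with ADAR1 p150. They were lower in both treated groups, and their part in the results below was not tested. In bulk RNA, fewer cells with a transcript and less of it per cell cannot be told apart.

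The members took 12.1% to 14.0% of the counts of a library, and 23.3% to 25.7% once AY036118 was left out. Of the 1270 genes whose mean count reached 100, 35.1% had a Gm symbol, against 20.0% of genes with a mean from 10 to under 100 and 43.6% of the whole table. Among the 100 genes with the most counts, 35 were Gm genes. Most members were annotated as lncRNA (371), 38 as protein-coding, 18 as pseudogenes, 4 as transcribed pseudogenes and 5 as miscellaneous RNA. Their mean counts ran from 100.5 to 16626, with a median of 221. 28 members had a mean over 1000, 216 from 200 to under 1000 and 192 from 100 to under 200. The 3 most abundant held 16.5% of all member counts, and the 10 most abundant 23.3%. The members just inside the limit were Gm33464 (mean count 100.5), Gm40476 (100.5) and Gm15834 (100.6), and the Gm genes just outside it were Gm52240 (99.88), Gm52284 (99.62) and Gm52731 (99.62).

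Gm38733, an lncRNA on chromosome 5 (142895304 to 142903515, plus strand, GRCm38.p6), had the most counts of any member and ranked 2 among all genes. It had 13168 and 13103 counts in vehicle cells, 21213 and 21735 after 12-HETE, 14129 and 13137 in vector cells, and 17712 and 18812 under ADAR1 p150. After scaling for library size by TMM, this was 11072 ± 285 CPM (a count normalised to library size, mean ± SD, n = 2) with vehicle, 15888 ± 1070.2 with 12-HETE, 12188 ± 1003 with vector and 13340.4 ± 1245 with ADAR1 p150. Its 3′ end overlapped Actb, the gene of cytoplasmic beta-actin on the minus strand, by 401 bases. Fbxl18 was another opposite-strand gene that it overlapped, and Actb is named as the one with more counts. Actb itself was assigned 364 to 1227 counts per library. Its promoter is shown because this member carried the most counts. The sequence runs from 250 bases before to 50 bases after the RefSeq start (chr5:142895054-142895353, GRCm38.p6, plus strand), 66.7% of it is G or C, and none of the 5 short motifs searched was found in it, so no base is in capitals.
Gm38733: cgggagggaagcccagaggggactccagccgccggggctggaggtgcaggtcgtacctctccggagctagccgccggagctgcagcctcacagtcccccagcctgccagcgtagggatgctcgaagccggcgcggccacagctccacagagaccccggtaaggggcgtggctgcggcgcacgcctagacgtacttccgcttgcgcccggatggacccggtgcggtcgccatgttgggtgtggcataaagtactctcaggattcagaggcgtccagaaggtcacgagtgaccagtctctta

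Gm41396 and Gm30368, both lncRNAs on chromosome 15, came next. Gm41396 (98917969 to 98943671, plus strand) lay across Tuba1b, which encodes alpha-tubulin of the microtubules. It had 4470 and 4321 counts in vehicle cells, 9773 and 9214 after 12-HETE, 4421 and 4370 in vector cells, and 5424 and 5500 under ADAR1 p150. Both 12-HETE libraries were above the other 6 after scaling, and the log2 fold change was 0.92 ± 0.09 (SE, adjusted p = 5.2e-10) with 12-HETE and 0.02 ± 0.09 (adjusted p = 0.894) with ADAR1 p150. Gm30368 (78912204 to 78927995, minus strand) overlapped Lgals1, the gene of galectin-1, a secreted lectin that binds beta-galactosides, by 1271 bases. Gm30368 also overlapped Pdxp on the opposite strand. It had 3489 and 3439 counts in vehicle cells, 8795 and 8146 after 12-HETE, 3534 and 3068 in vector cells, and 7040 and 7105 under ADAR1 p150. Both treated groups stood above both control groups, and the log2 fold changes were 1.10 ± 0.10 (adjusted p = 3.1e-11) and 0.81 ± 0.10 (adjusted p = 4.2e-08).

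The other 7 of the 10 most abundant members lay across Gbp3 (an interferon-inducible GTPase), Rab7 (a GTPase of late endosomes), Cnbp (a nucleic acid-binding zinc finger protein), Aamp, Abhd2, Dst (a linker of cytoskeletal filaments) and Ccn2 (a matricellular growth factor). Gm44064, across Cnbp and annotated as protein-coding, had 1444 and 1538 counts in vehicle cells, 2236 and 2306 after 12-HETE, 1484 and 1611 in vector cells, and 1264 and 1292 under ADAR1 p150. It was higher with 12-HETE (0.42 ± 0.10, adjusted p = 9.1e-04) and lower with ADAR1 p150 (-0.57 ± 0.10, adjusted p = 2.6e-05), both under a 2-fold change. Gm15270, across Ccn2, had 1663 and 1650 counts in vehicle cells, 1048 and 922 after 12-HETE, 1682 and 1497 in vector cells, and 1478 and 1381 under ADAR1 p150, with log2 fold changes of -0.94 ± 0.10 (adjusted p = 2.3e-09) and -0.45 ± 0.10 (adjusted p = 6.2e-04). Gm26788, across Dst, had a log2 fold change of -0.53 with 12-HETE (adjusted p = 4.1e-05) and 0.03 with ADAR1 p150 (adjusted p = 0.851). Gm40158, across Gbp3, had -0.32 and -0.41 (adjusted p = 0.00985 and 0.00108). For Gm34872 across Rab7, Gm28364 across Aamp and Gm24224 across Abhd2 the 12-HETE values were 0.41, 0.56 and 0.15, and the ADAR1 p150 values -0.09, 0.21 and -0.22. Of the 10, only Gm30368 passed both the adjusted p threshold of 0.05 and the 2-fold threshold in a treatment contrast, and without vehicle replicate 5 its 12-HETE value was 1.0, just under the 2-fold threshold.

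**Figure D1:**
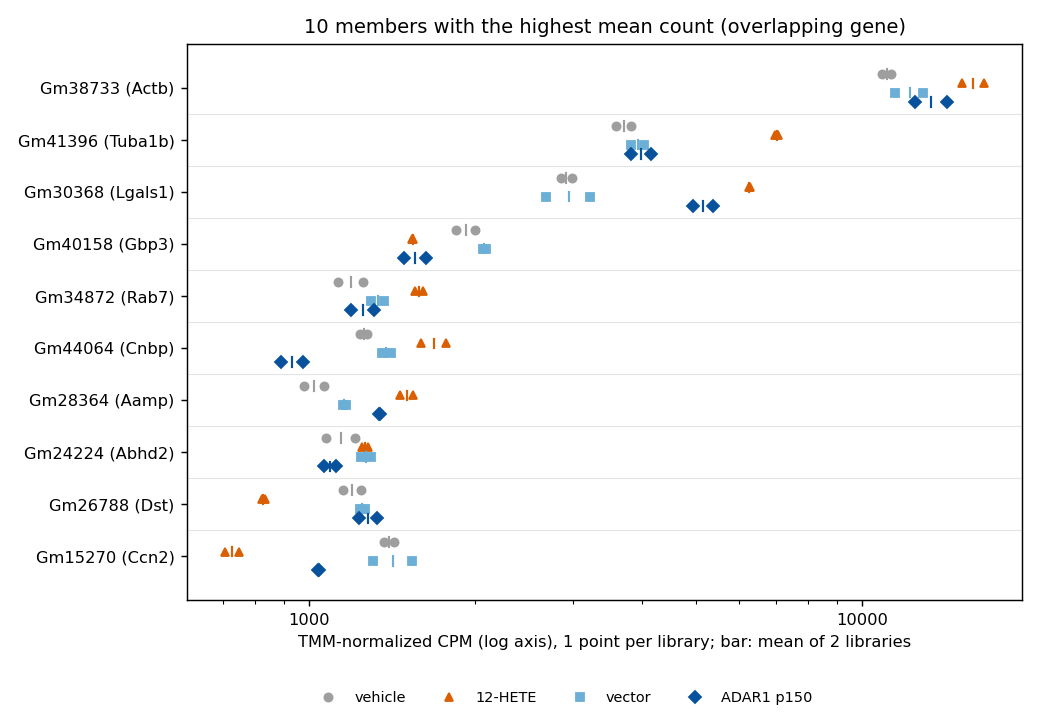
TMM-normalized CPM (log axis) of the 10 members with the highest mean count, with the overlapping gene in brackets. Each point is 1 library and each short bar the mean of 2; Gm41396 and Gm30368 stand out with 12-HETE (log2 fold changes 0.92 and 1.10), and Gm15270 is lowest with 12-HETE (-0.94).

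The members lay almost without exception across a gene on the opposite strand. The strand was known for 362 members, and the span of 355 of them (98.1%) overlapped the span of an opposite-strand gene. 4 lay apart from genes, 2 started head to head with a gene within 1000 bases, and 1 lay within a same-strand gene. Of the 74 members whose strand was not known, 73 overlapped a gene. The share with an opposite-strand gene was 85.7% (812 of 947) for Gm genes with a mean count from 10 to under 100 and 24.2% (4022 of 16636) for those under 10. It was 88.4% (704 of 796) for other genes with a mean of at least 100 and 47.7% (2124 of 4455) for other genes from 10 to under 100. Median spans differed too, at 7994, 5051, 2249, 14609 and 23629 bases for the members and these 4 sets in that order, and a longer span can overlap more genes. 189 of the 355 members lay wholly inside the opposite-strand gene.

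Counts assigned to a member exceeded those of its partner, taken as the opposite-strand gene with the most counts, in 350 of 355 cases (98.6%). The partner was protein-coding for 340 of them, an lncRNA for 12, a pseudogene for 2 and a miRNA for 1. 341 different genes were partners, and 14 of these had 2 members each. The member had a median of 17.0 times its partner's counts (quartiles 7.32 and 34.1), and at least 10 times in 230 cases. These are counts of whole genes, not divided by length. Partner means had a median of 16.0, and 132 partners were under 10. Members had to reach a mean of 100 and partners had no minimum, so the choice of members itself favours this excess. Of the 73 members with unknown strand that overlap a gene, 71 also had more counts than that gene. In 1 of these, the pseudogene Gm51685, the count was 347 to 1203 per library, beside 0 to 3 for Cox7a2, a subunit of cytochrome c oxidase. The 5 members not above their partner were Gm46093 (Kansl1l), Gm39011 (Ldha), Gm12743 (Cc2d1b), Gm39195 (Unc13a) and Gm52396 (Myof). The gap was widest for Gm39195, which had 61 to 256 counts per library against 697 to 894 for Unc13a, a gene best known for priming synaptic vesicles. Ldha, which makes lactate dehydrogenase A, had 171 to 461 counts against 84 to 264 for Gm39011. The spans of Gm39011 and Ldha overlapped by only 1 base, and those of Gm12743 and Cc2d1b by only 5.

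**Figure D2:**
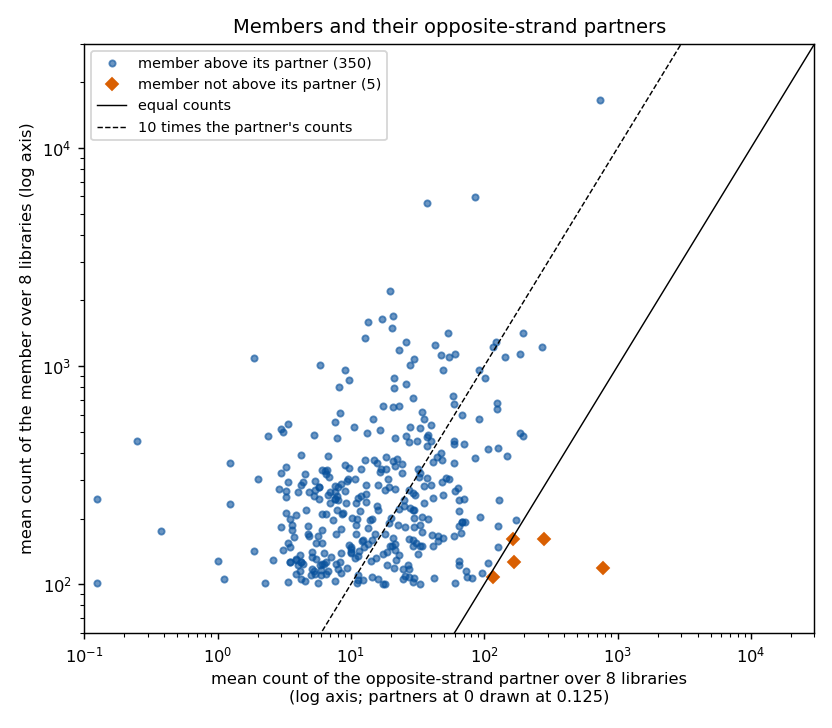
Mean count over 8 libraries of each of 355 members (vertical) against that of its opposite-strand partner (horizontal), both on log axes, with partners at 0 drawn at the left edge. 350 members lie above the line of equal counts, 5 lie on or under it, and Gm38733 is at the top with 16626 counts.

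12-HETE changed 57 of the 436 members (13.1%) at an adjusted p under 0.05 and at least a 2-fold change, against 14.4% of all 6901 genes tested (edgeR's quasi-likelihood test, Benjamini-Hochberg adjustment over those genes). 29 members rose (6.65%, against 6.12% of all genes) and 28 fell (6.42%, against 8.25%). With TMM factors computed without AY036118 the same counts were 23 and 35, and without vehicle replicate 5 they were 20 and 35. These shares were near the background. The other genes at or above a mean of 100 were called in 8.98% of cases. The median log2 fold change of the members was 0.13, against 0.00 for all genes tested and 0.16 for the other genes of at least 100 counts. At an adjusted p under 0.05 alone, 256 members passed (58.7%). The share was 29.3% of all genes and 54.1% of the other genes of at least 100 counts. The standard errors of the log2 fold changes had a median of 0.13 in the members, 0.13 in those other genes and 0.31 in all genes.

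Gm52421, an lncRNA on the X chromosome (73036020 to 73040293, plus strand) across Pnma5, of the paraneoplastic Ma antigen family, had the largest rise. It had 17 and 13 counts in vehicle cells, 202 and 178 after 12-HETE, 20 and 17 in vector cells, and 168 and 195 under ADAR1 p150. The control and treated libraries did not overlap, and the log2 fold change was 3.46 ± 0.22 (adjusted p = 1.6e-14) with 12-HETE and 3.0 ± 0.22 (adjusted p = 3.9e-13) with ADAR1 p150. Pnma5 had 3 and 4 counts in vehicle cells, 12 and 16 after 12-HETE, 1 and 6 in vector cells, and 24 and 23 under ADAR1 p150, and was itself called in both contrasts (1.78 with adjusted p = 0.0172, and 2.42 with adjusted p = 5.6e-04). The promoter of Gm52421 (chrX:73035770-73036069, GRCm38.p6, plus strand, 56.7% G or C) is shown because this member changed the most in both contrasts, and it held none of the motifs searched.
Gm52421: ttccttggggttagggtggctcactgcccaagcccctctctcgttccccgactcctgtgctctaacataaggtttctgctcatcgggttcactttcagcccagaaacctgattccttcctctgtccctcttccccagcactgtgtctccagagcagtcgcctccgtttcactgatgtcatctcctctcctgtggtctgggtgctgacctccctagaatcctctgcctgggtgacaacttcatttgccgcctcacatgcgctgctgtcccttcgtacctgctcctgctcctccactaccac

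Among the other lncRNAs that rose with 12-HETE, Gm46108 lay across Nectin1, a cell adhesion molecule of adherens junctions. It had 76 and 79 counts in vehicle cells, 349 and 395 after 12-HETE, 84 and 72 in vector cells, and 146 and 159 under ADAR1 p150, and its log2 fold change was 2.07 ± 0.15 (adjusted p = 2.1e-13) with 12-HETE. Gm24576 lay across Ehd2, an ATPase of caveolae, and had 66 and 68 counts in vehicle cells, 321 and 298 after 12-HETE, 64 and 74 in vector cells, and 243 and 225 under ADAR1 p150 (2.02 ± 0.14, adjusted p = 1.9e-13). Gm40452 on chromosome 7 (113049291 to 113050588, minus strand) was 1 of the 4 members apart from genes, with 50 and 41 counts in vehicle cells, 213 and 205 after 12-HETE, 59 and 48 in vector cells, and 218 and 235 under ADAR1 p150 (2.01 ± 0.17, adjusted p = 2.2e-11). In each of these 3 members both treated groups exceeded both control groups after scaling. Gm28857, across AA986860, had 160 and 141 counts in vehicle cells and 601 and 641 after 12-HETE (1.86 ± 0.12, adjusted p = 1.9e-14). Gm16596, across Eml1, a microtubule-associated protein, rose by 1.72, and Gm51543, which overlaps Cx3cl1, the chemokine fractalkine, by 1.57. Gm52422 (Med14, of the Mediator complex), Gm45916 (Slc16a6, a monocarboxylate transporter family member), Gm51667 (Chordc1, an Hsp90 co-chaperone), Gm52041 (Ssr1, of the translocon at the endoplasmic reticulum), Gm40078 (Trim2, a ubiquitin ligase), Gm34844 (Fam222a) and Gm11655 (Prkca, protein kinase C alpha) rose by 1.55, 1.47, 1.36, 1.30, 1.29, 1.25 and 1.23. Without vehicle replicate 5, Gm40078 had 0.96 and was no longer called with 12-HETE. 12 others had log2 fold changes from 1.01 (Gm52438) to 1.23 (Gm10138).

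The largest fall with 12-HETE was that of Gm36099, an lncRNA on chromosome 13 (33031060 to 33034643, minus strand) across Serpinb9b, a serine protease inhibitor. It had 246 and 204 counts in vehicle cells, 66 and 50 after 12-HETE, 218 and 195 in vector cells, and 152 and 141 under ADAR1 p150. The 12-HETE libraries were far under the other 6, and the log2 fold change was -2.15 ± 0.16 (adjusted p = 1.0e-12), against -0.79 ± 0.14 (adjusted p = 5.7e-05) with ADAR1 p150. Serpinb9b had 9 to 21 counts in every library and a log2 fold change of -0.94 with 12-HETE (adjusted p = 0.0792). The promoter of Gm36099 (chr13:33034594-33034893, GRCm38.p6, minus strand) is shown for this fall. It was 36.7% G or C, had no CG dinucleotide, and held 1 of the motifs searched, a TATAAA on the other strand, which is in capitals as it reads on the strand printed.
Gm36099: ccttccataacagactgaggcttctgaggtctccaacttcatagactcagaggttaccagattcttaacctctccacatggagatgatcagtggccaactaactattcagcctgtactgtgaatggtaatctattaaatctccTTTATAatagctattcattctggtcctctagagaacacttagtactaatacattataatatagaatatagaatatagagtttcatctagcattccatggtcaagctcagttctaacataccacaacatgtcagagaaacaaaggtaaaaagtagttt

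Gm31881, across Gipc2, had 191 and 197 counts in vehicle cells, 46 and 56 after 12-HETE, 188 and 170 in vector cells, and 172 and 183 under ADAR1 p150 (-2.11 ± 0.17, adjusted p = 2.8e-12). Gm52698, across Rusc2, had 393 and 351 in vehicle cells, 111 and 108 after 12-HETE, 353 and 369 in vector cells, and 280 and 301 under ADAR1 p150 (-1.95 ± 0.13, adjusted p = 3.7e-14). In both members the 12-HETE libraries were the lowest of the 4 groups. Gm41698, which overlaps Hbegf, a ligand of the EGF receptor, was the most abundant member that fell past 2-fold, with 1049 and 1022 counts in vehicle cells, 413 and 407 after 12-HETE, 1006 and 992 in vector cells, and 418 and 414 under ADAR1 p150 (-1.53 ± 0.10, adjusted p = 1.4e-14). Gm34086, across Vps37b, an ESCRT-I subunit, had 788 and 810 in vehicle cells, 327 and 326 after 12-HETE, 802 and 837 in vector cells, and 342 and 355 under ADAR1 p150 (-1.48 ± 0.10, adjusted p = 6.6e-14). Both stood at nearly the same low level in the 2 treated groups. The lncRNAs Gm40855 (Asap2), Gm36753 (Sgms2, a sphingomyelin synthase), Gm51702 (Vstm5), Gm15462 (Lrrc31), Gm7628 (Plxnb1, a semaphorin receptor), Gm35219 (Arap1), Gm35768 (Itpr2, an IP3 receptor), Gm15318 (Tff1, a trefoil factor) and Gm51952 (Zfyve1) fell, with log2 fold changes of -1.85, -1.78, -1.72, -1.60, -1.55, -1.53, -1.48, -1.42 and -1.40. The pseudogene Gm16184, across Pvr, a ligand of natural killer and T cell receptors, fell by 1.47. The miscellaneous RNA Gm6287, which overlaps Zfp655, and Gm31850, Gm42281 and Gm33595 also fell and are given with ADAR1 p150. The 9 others had values from -1.40 (Gm52396) to -1.0 (Gm52912).

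ADAR1 p150 overexpression changed 44 members against vector (10.1%, against 12.8% of all genes tested and 7.65% of other genes with at least 100 counts). 29 rose (6.65%, against 8.11% of all genes) and 15 fell (3.44%, against 4.69%). The median log2 fold change was 0.02, beside 0.07 for all genes and -0.07 for the other genes of at least 100 counts. The sign of this median depended on scaling, at -0.04 with RLE factors and -0.03 with TMM factors computed without AY036118. At the adjusted p alone, 226 members passed (51.8%, against 25.6% of all genes and 44.9% of other genes of at least 100 counts). As with 12-HETE, the share called was close to the background.

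After Gm52421, the largest rise was that of Gm11655, the lncRNA across Prkca (chromosome 11, 108172938 to 108188560, plus strand). It had 46 and 54 counts in vehicle cells, 145 and 123 after 12-HETE, 32 and 42 in vector cells, and 239 and 239 under ADAR1 p150, and its log2 fold change was 2.40 ± 0.17 (adjusted p = 4.6e-13). Prkca had 0 to 9 counts in every library. Gm40078, across Trim2, had 66 and 46 counts in vehicle cells, 161 and 152 after 12-HETE, 58 and 50 in vector cells, and 301 and 267 under ADAR1 p150 (2.10 ± 0.16, adjusted p = 2.7e-12), while Trim2 had 8 to 23 counts and a log2 fold change of -0.17 (adjusted p = 0.8). Gm19417, across Nfia, a transcription factor, had 110 and 115 in vehicle cells, 172 and 179 after 12-HETE, 77 and 92 in vector cells, and 350 and 370 under ADAR1 p150 (1.80 ± 0.14, adjusted p = 2.2e-12). In these 3 members the ADAR1 p150 libraries were the highest of all 8. Gm40452, apart from genes, rose by 1.79, Gm51543 by 1.52, Gm24576 by 1.47, and Gm29481, across the proteoglycan gene Gpc1, by 1.47. Gm41074, across Fst, which encodes the activin inhibitor follistatin, had 147 and 146 counts in vector cells and 431 and 431 under ADAR1 p150 (1.26 ± 0.12, adjusted p = 7.0e-10). Gm36090 on chromosome 2 (164532189 to 164549375, minus strand), also apart from genes, had 99 and 98 in vector cells and 279 and 299 under ADAR1 p150 (1.26 ± 0.14, adjusted p = 1.9e-08). Gm40302 (across Mir6417, which had 0 counts), Gm46093, Gm39195, the pseudogene Gm4274 (which overlaps Immp2l) and Gm33464 (Ank3, an ankyrin) rose by 1.37, 1.32, 1.32, 1.28 and 1.25. The 14 others that rose had values from 1.0 (Gm52879) to 1.23 (Gm32715).

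The largest fall with ADAR1 p150, to the second decimal, was shared by Gm33595 and Gm41698. Gm33595, an lncRNA on chromosome 17 (36944697 to 36947082, minus strand) across Rnf39, had 134 and 137 counts in vehicle cells, 82 and 71 after 12-HETE, 160 and 165 in vector cells, and 71 and 64 under ADAR1 p150. The treated libraries were under their controls in both experiments, with log2 fold changes of -1.56 ± 0.16 (adjusted p = 1.4e-09) with ADAR1 p150 and -1.01 ± 0.16 (adjusted p = 5.0e-06) with 12-HETE. Rnf39 had 3 to 17 counts and values of 0.83 and 0.85 (adjusted p = 0.215 and 0.21). The promoter of Gm33595 (chr17:36947033-36947332, GRCm38.p6, minus strand, 68.0% G or C) is shown for this fall and held none of the motifs searched.
Gm33595: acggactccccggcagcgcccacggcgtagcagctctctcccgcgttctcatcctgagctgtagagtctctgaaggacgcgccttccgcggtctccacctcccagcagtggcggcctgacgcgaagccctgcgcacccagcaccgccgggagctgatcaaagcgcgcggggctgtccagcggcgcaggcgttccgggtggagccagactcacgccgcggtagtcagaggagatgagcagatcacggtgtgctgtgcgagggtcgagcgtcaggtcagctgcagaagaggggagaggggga

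Gm15708, across Baiap2l1, which links membranes to actin, had 708 and 732 counts in vehicle cells, 537 and 505 after 12-HETE, 739 and 846 in vector cells, and 361 and 339 under ADAR1 p150 (-1.47 ± 0.10, adjusted p = 6.4e-14). Baiap2l1 itself had a log2 fold change of -0.65 (adjusted p = 0.0161), under 2-fold. Gm34921, across Dusp6, a phosphatase of ERK kinases, had 618 and 575 counts in vector cells and 305 and 343 under ADAR1 p150 (-1.17 ± 0.11, adjusted p = 2.0e-10). Gm26885, across the kinase gene Pim1, had 373 and 451 in vector cells and 217 and 204 under ADAR1 p150 (-1.26 ± 0.12, adjusted p = 1.8e-10). The fall in these 3 members was larger than the gap between their replicates. Gm34086, Gm36753, Gm40855, Gm6287, Gm31850, Gm52788 (Pitpnm2), Gm42281 and Gm11946 (Smtn, smoothelin) fell, with values of -1.52, -1.43, -1.26, -1.21, -1.10, -1.13, -1.03 and -1.03. Gm31850 and Gm42281 lie near each other on chromosome 4 and are both across Tbc1d2, a Rab GTPase-activating protein. Leaving out 1 library brought 3 of these under 2-fold: Gm52788 was at -0.88 without vector replicate 2, Gm42281 at -0.95 without ADAR1 p150 replicate 1 and -0.91 without vector replicate 2, and Gm11946 at -0.98 without ADAR1 p150 replicate 1 and -1.0 without vector replicate 1.

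The 38 members annotated as protein-coding were called in 0 cases with 12-HETE, by edgeR (25 had an unadjusted p under 0.05, and 23 an adjusted p under 0.05) and in 0 by DESeq2. Of all genes tested, edgeR called 14.4% with 12-HETE and 12.8% with ADAR1 p150. With ADAR1 p150 2 of the 38 protein-coding members (5.26%) fell. Gm52009, across Cdca4, had 187 and 170 counts in vector cells and 104 and 78 under ADAR1 p150 (-1.27 ± 0.15, adjusted p = 5.8e-08). Gm45095, across Cebpg, a bZIP transcription factor, had 304 and 290 in vector cells and 154 and 150 under ADAR1 p150 (-1.26 ± 0.12, adjusted p = 6.7e-10). Of the 18 pseudogenes, 3 rose and 2 fell with 12-HETE (27.8% called) and 2 rose with ADAR1 p150 (11.1%). These sets are small, and no test between annotations was made. Gm51685 rose in both contrasts, with 380 and 362 counts in vehicle cells, 1203 and 1137 after 12-HETE, 347 and 399 in vector cells, and 890 and 956 under ADAR1 p150 (1.47 ± 0.10 and 1.02 ± 0.10, adjusted p = 8.5e-14 and 9.2e-10). A processed pseudogene can share reads with its parent gene, so these counts are uncertain. Of the 371 lncRNAs, 51 (13.7%) were called with 12-HETE and 39 (10.5%) with ADAR1 p150.

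21 members were called in both treatment contrasts, which share no library, and in the same direction each time. This was 4.82% of the members, near the 4.87% of all genes tested that were called in both (336 genes, of which 315 moved in the same direction and 21 in opposite directions). The 21 members were 36.8% of the 57 members called with 12-HETE and 47.7% of the 44 called with ADAR1 p150, and for all genes these shares were 33.9% and 38%. No test of this difference was made. 13 rose in both (Gm52421, Gm24576, Gm40452, Gm16596, Gm51543, Gm45916, Gm51685, Gm52041, Gm40078, Gm11655, Gm30270, Gm52885 and Gm29481) and 8 fell in both (Gm33595, Gm42281, Gm31850, Gm6287, Gm34086, Gm41698, Gm36753 and Gm40855). 80 members were called in at least 1 contrast. Over all 436 members the 2 log2 fold changes had Pearson's r of 0.59 and Spearman's rho of 0.51 (0.49 and 0.37 over all genes tested), a description across genes, which are not independent replicates, and the 4 groups were scaled and fitted together. Gm51543 had 159 and 166 counts in vehicle cells, 557 and 543 after 12-HETE, 156 and 163 in vector cells, and 586 and 539 under ADAR1 p150, so its values were 1.57 and 1.52. Gm41698 had -1.53 and -1.56, and Gm34086 had -1.48 and -1.52. For these 3 the difference between the effects was -0.04, -0.03 and -0.04 (adjusted p = 0.897, 0.921 and 0.881). Gm30270, across Tspan12, a tetraspanin, had 1.17 and 1.16, and Gm52885, across Vps50, of an endosomal recycling complex, had 1.04 and 1.01.

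**Figure D3:**
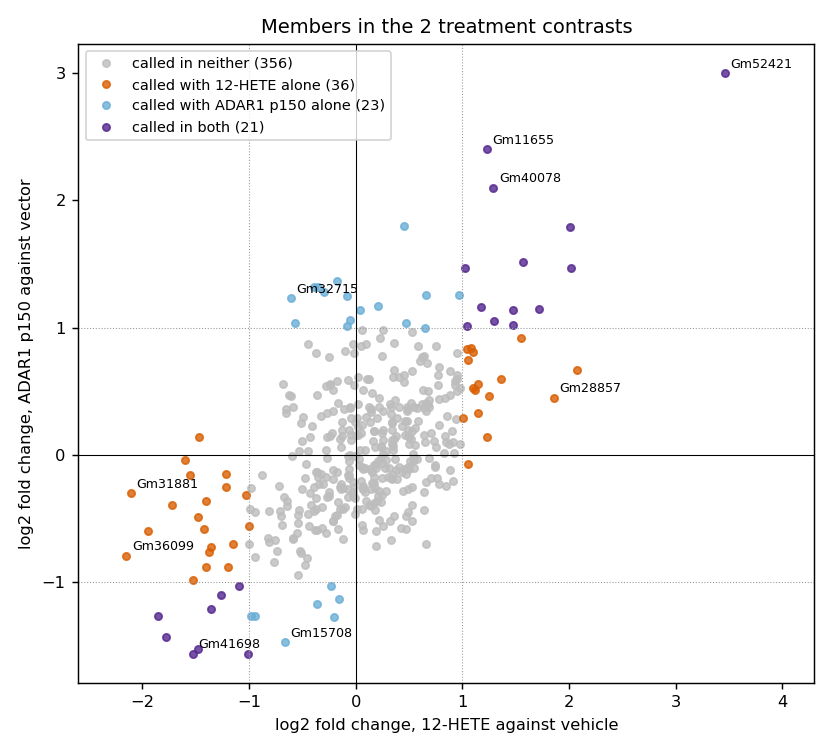
Log2 fold change of each of the 436 members for 12-HETE against vehicle (horizontal) and ADAR1 p150 against vector (vertical), with dotted lines at 2-fold. The 21 members called in both (purple) lie in the upper right (13) or lower left (8), none in the other corners, and Gm52421 is farthest out at 3.46 and 3.0.

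**Figure D4:**
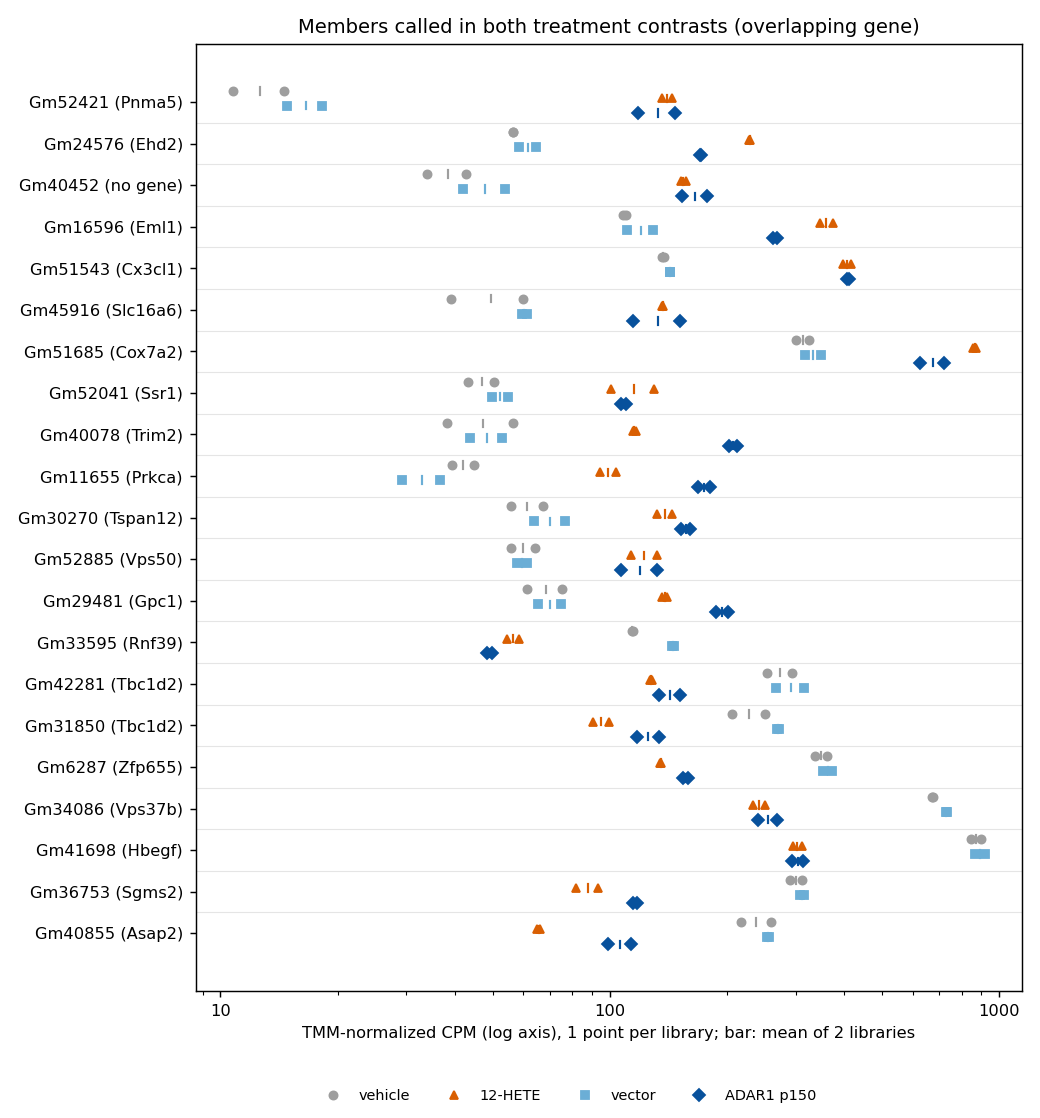
TMM-normalized CPM (log axis) of the 21 members called in both contrasts, 1 point per library and a short bar for the mean of 2, with the overlapping gene in brackets. In the upper 13 rows both treated groups lie to the right of both controls, and in the lower 8 rows to the left.

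The effects of the 2 treatments differed in 41 members (9.4%, against 8.33% of all genes tested), with a difference of at least 2-fold at an adjusted p under 0.05. ADAR1 p150 minus 12-HETE was positive in 28 (6.42%, against 6.14%) and negative in 13 (2.98%, against 2.19%). The 8 largest differences were all positive. Gm32715, across Kdm4b, a histone demethylase, had 86 and 71 counts in vehicle cells, 55 and 62 after 12-HETE, 98 and 85 in vector cells, and 267 and 259 under ADAR1 p150, and its difference was 1.84 ± 0.24 (adjusted p = 1.6e-06). Gm46093, across Kansl1l, had 119 and 127 in vehicle cells, 96 and 117 after 12-HETE, 93 and 112 in vector cells, and 329 and 300 under ADAR1 p150 (1.72 ± 0.21, adjusted p = 4.9e-07). Gm39195, across Unc13a, had 66 and 78, 61 and 68, 79 and 89, and 256 and 256 in the same order (1.66 ± 0.24, adjusted p = 5.7e-06). These 3, with Gm4274 and Gm51770 (Arid5b), were high in the ADAR1 p150 libraries alone. For Gm31881, Gm16184 and Gm15462 the 12-HETE libraries were the ones apart, and low. Gm15462 had 212 and 184 counts in vehicle cells, 86 and 63 after 12-HETE, 208 and 181 in vector cells, and 251 and 212 under ADAR1 p150 (1.56 ± 0.21, adjusted p = 2.1e-06). The largest negative difference was that of Gm28857, at -1.41 (adjusted p = 5.8e-07). Gm41396, across Tuba1b, had a difference of -0.90 (adjusted p = 4.5e-06), under 2-fold.

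**Figure D5:**
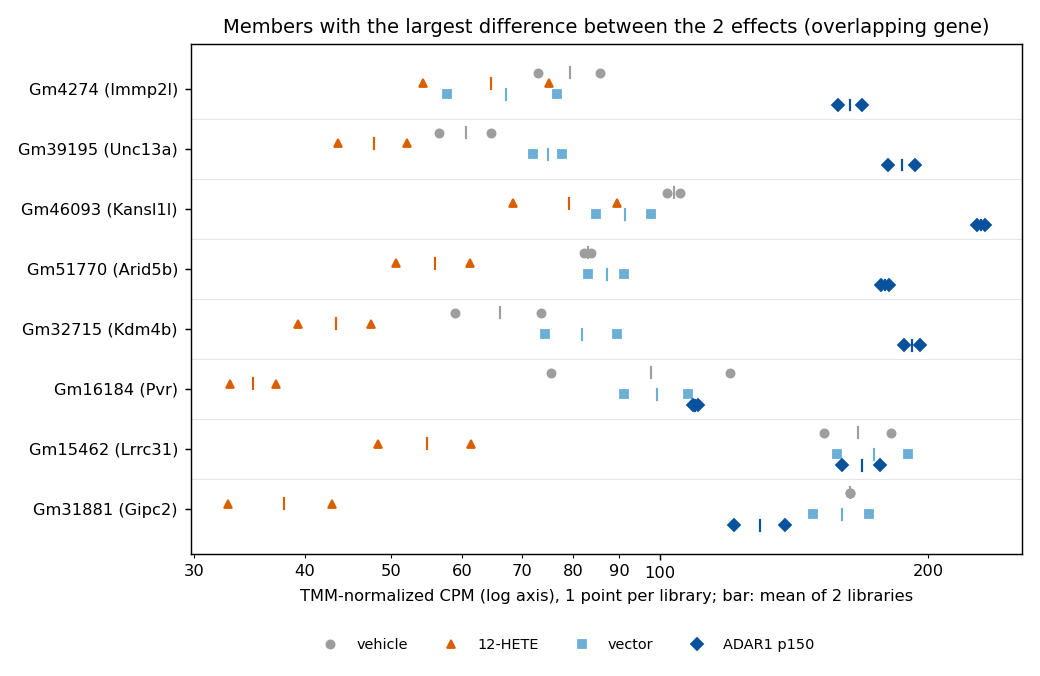
TMM-normalized CPM (log axis) of the 8 members with the largest difference between the effects of ADAR1 p150 and 12-HETE, 1 point per library and a short bar for the mean of 2, with the overlapping gene in brackets. The upper 5 rows have high ADAR1 p150 values, the lower 3 rows low 12-HETE values, and the differences run from 1.56 to 1.84 on the log2 scale.

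Vector and vehicle cells, the controls of the 2 experiments, differed in 0 members by edgeR at an adjusted p under 0.05 and 2-fold, with 45 at an unadjusted p under 0.05 (DESeq2 called 0, with 38). 0.0435% of all genes tested were called. The median log2 fold change, vector against vehicle, was 0.13 in the members, 0.10 in the other genes of at least 100 counts and -0.01 in all genes. Above 0 were 368 of the 436 members, 614 of the 824 other genes of at least 100 counts and 3379 of all 6901 genes. Single values of the members ran from -0.37 to 0.57. Without vehicle replicate 4, 1 member was called. Within groups, replicates of a member differed by a median of 0.11 to 0.13 on the log2 scale.

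The members' changes and their partners' changes were set side by side for the 223 pairs in which the partner had a mean of at least 10. The background, as the share of all genes tested that were called, was 14.4% with 12-HETE, 12.8% with ADAR1 p150 and 8.33% for the difference. With 12-HETE, 34 of the 223 members and 25 of the partners were called, and 12 pairs had both called, all in the same direction. In 31 of the 34 called members the partner had the same sign. The log2 fold changes had a Pearson's r of 0.65 and a Spearman's rho of 0.61 across the 223 pairs. With ADAR1 p150, 21 members and 16 partners were called, 4 pairs had both called, again in the same direction, and r was 0.46 and rho 0.41. Here the partner had the same sign in 12 of the 21 called members. For the difference between the effects, 19 members and 12 partners were called, r was 0.38 and rho 0.39, and of the 2 pairs with both called, 1 (Gm7628 and Plxnb1, 1.40 and 2.56) agreed in sign and 1 (Gm33350 and Gemin5, -1.05 and 1.01) did not. For vector against vehicle r was -0.04 and rho 0.00. The points of a pair share libraries, overlap in the genome and may share reads, so these are descriptions. Gm36753 and its partner Sgms2 moved together in both contrasts, the member by -1.78 and -1.43 and Sgms2 by -1.48 (adjusted p = 1.5e-06) and -1.28 (adjusted p = 1.9e-05). Sgms2 had 117 and 86 counts in vehicle cells, 37 and 46 after 12-HETE, 84 and 100 in vector cells, and 54 and 39 under ADAR1 p150. Gm7628 fell with 12-HETE by 1.55, and Plxnb1 by 2.15, from 43 and 43 counts to 16 and 6. Kansl1l was called with ADAR1 p150 (1.15, adjusted p = 6.6e-08), as was Gm46093 (1.32), whereas with 12-HETE Kansl1l had 0.70 (adjusted p = 2.9e-04) and Gm46093 -0.39 (adjusted p = 0.0547). Unc13a had -0.02 with ADAR1 p150 (adjusted p = 0.901) beside 1.32 for Gm39195.

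Promoter sequences of 300 bases (250 before and 50 after the start) were given by RefSeq for 316 of the members, with 426 starts. Their median content of G and C was 52.8%, against 52.7% for all 32851 promoters of the table, 47.7% for other Gm genes, 59.3% for other genes of at least 100 counts and 62.3% for the members' partners. The ratio of observed to expected CG dinucleotides, which is high in CpG islands, had a median of 0.30 in the members, 0.38 in all promoters, 0.22 in other Gm genes, 0.72 in the other abundant genes and 0.76 in the partners. 19.7% of member promoters had a ratio over 0.6, against 68% of partner promoters. On either strand, TATAAA was in 10.3% of member promoters (13.6% of all), GGGCGG, the core of an SP1 site, in 24.4% (35.7%), CCAAT in 31% (37.4%), TGANTCA, an AP-1 site, in 5.87% (7.81%), and the core of an interferon-stimulated response element, which is GAAA followed 2 bases later by another GAAA, in 2.11% (3.44%). Promoters of members called in either treatment held TATAAA in 14.8%, GGGCGG in 17%, CCAAT in 26.1%, TGANTCA in 9.09% and the response element in 1.14%. Those not called had 9.17%, 26.3%, 32.2%, 5.03% and 2.37%. These matches are letters in a window, with no test.

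Of 41 lncRNAs and other non-coding RNAs with names, taken as a list beside the members, 9 had a mean count of at least 10. With 12-HETE 2 rose and 2 fell, and with ADAR1 p150 3 rose and 1 fell. The antisense pair Tsix and Xist rose in both, Tsix from 102 and 90 counts in vehicle cells to 1292 and 1398 after 12-HETE (3.62, adjusted p = 2.7e-22) and from 80 and 85 in vector cells to 1811 and 1779 under ADAR1 p150 (4.15, adjusted p = 5.3e-24). Xist, the RNA that coats the inactive X chromosome and lies across from Tsix, had 0 to 43 counts. With the strand setting not given, reads of Tsix and of Xist cannot be told apart here either. Zfas1 fell in both (-2.23 and -1.46, adjusted p = 8.7e-05 and 0.0125). Malat1, a nuclear lncRNA, fell with 12-HETE (-1.73, adjusted p = 4.3e-08) and had -0.50 with ADAR1 p150 (adjusted p = 0.0724). The imprinted antisense RNA Kcnq1ot1 rose with ADAR1 p150 (1.52, adjusted p = 1.1e-04).

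The 12 left-out Gm genes had been singled out with their values known, so their changes are given as a description. 10 were called with 12-HETE and 9 with ADAR1 p150. With all 12 put back, the 2 under a mean of 100 (Gm18301 and Gm52209) included, 67 of 448 genes were called with 12-HETE and 53 with ADAR1 p150. The shares of all genes tested were 14.4% and 12.8%.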

How the data were processed

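Total RNA of EO771 cells was sequenced in 8 libraries, vehicle, 12-HETE, vector and ADAR1 p150, with 2 libraries each. The authors deposited raw gene counts for 49997 genes, without normalization. Per the study's methods, the reads were freed of duplicates (prinseq), mapped (STAR) and counted as fragments (featureCounts), and the submitters' processing notes name the build GRCm38. The labels name an RNeasy extraction and a SMARTER kit, while the methods name Trizol and a directional kit. The strand setting is not given in the sources used here. A gene can lose counts to a copy or an overlapping gene. 0 columns belonged to no sample.

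The members and lists were chosen with earlier results of these data known. The 6901 genes whose mean count reached 10 were fitted in edgeR 4.0.16 (limma 3.58.1, R 4.3.3) with TMM factors and the quasi-likelihood test, with 1 coefficient per group, 4 residual degrees of freedom and Benjamini-Hochberg adjustment over all genes tested. A call needed an adjusted p under 0.05 together with a change of 2-fold or more. CPM used TMM-scaled library sizes. Standard errors are the log2 fold change divided by the square root of F. Floors of 3 counts correspond to 2.11 to 2.74 CPM and cover counting error only. Members named with values are the 10 with the highest mean count, up to 15 per treatment contrast and direction by size, up to 8 for the difference between the effects, those next to the limit of 100, and their partners. Other genes named were chosen after their values were seen.

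Positions are those of RefSeq GRCm38.p6, strands those of its promoter table or of GENCODE M21. Partners were found by overlapping spans, since exons of RefSeq-only genes were not used here, and choosing the one with the most counts was decided after seeing the data. Alternatives were DESeq2 1.42.0, RLE factors, TMM without AY036118, other count minimums, fits of 4 libraries, a replicate block and leaving out each library. Same-numbered replicates did not deviate together (correlations of -0.0774 and -0.112). On simulated data for 12-HETE against vehicle, with 6901 genes and 200 changed 4-fold, 200 were recovered with 5 false calls. The changed genes were drawn from those with more counts, and no other gene was changed. Recovery of changes near 2-fold was not simulated.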

Additional observations from a re-analysis of the deposited data

Results flagged for a closer look

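The effects of 12-HETE and of ADAR1 p150 overexpression differed in 41 members by the interaction test (edgeR's quasi-likelihood test, adjusted p under 0.05 and 2-fold). This was 9.4% of the members, near the 8.33% of all genes tested. The 8 largest differences, ADAR1 p150 minus 12-HETE on the log2 scale, were 1.84 in Gm32715, 1.81 in Gm31881, 1.72 in Gm46093, 1.66 in Gm39195, 1.61 in Gm16184, 1.61 in Gm51770, 1.58 in Gm4274 and 1.56 in Gm15462. In Gm32715, Gm46093, Gm39195, Gm51770 and Gm4274 the ADAR1 p150 libraries were high, and in Gm31881, Gm16184 and Gm15462 the 12-HETE libraries were low. The summed mitochondrial ribosomal RNAs were lower in both treated groups than in their controls, and their part in these differences was not tested. No group had the 4 samples needed to look for single outlying libraries.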

How the results depend on the processing

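With 2 libraries a group and 1101767 to 1537037 counts a library, differences in members near 100 counts are imprecise. The named members (69 results) kept their direction under each alternative run, and 8 of their recomputed values fell under the 2-fold threshold, for Gm30368, Gm40078, Gm52788, Gm42281 and Gm11946. Gm11946 was at -1.0 with a minimum of 10 counts in every library.

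With adjusted p alone, 256 of the 436 members were called with 12-HETE, 226 with ADAR1 p150 and 161 for the difference. Among all 6901 genes tested, 2021, 1766 and 1033 were called in that order. With the 2-fold threshold added, 991, 884 and 575 of these genes were called. At adjusted p and 2-fold, with members of at least 50 counts the numbers were 97, 84 and 89, and with at least 200 counts 30, 19 and 16. In the 7 members with no opposite-strand gene they were 1, 2 and 0. Each set had another number of members, so these counts cannot be compared as shares. The median with 12-HETE was 0.05 with TMM without AY036118 and 0.41 in those 7 members, and without 1 library it ran from 0.02 (vehicle replicate 5) to 0.17 (vehicle replicate 4). The median with ADAR1 p150 was -0.09 with no count minimum (21 members rose and 17 fell), -0.09 with at least 200 counts and 0.38 in the 7 members. The median of vector against vehicle was 0.21 with no count minimum, and its number of called members ran from 0 to 1 (without vehicle replicate 4). The cause of these shifts was not tested. Members exceeded their partner in 100% of 85 pairs whose exons overlap by at least 200 bases, and in 97.5% to 99.2% within single libraries. The minimum of 100 counts, set for members alone, bears on these shares too. Without AY036118 in the total, their share of counts was 23.8% for vehicle, 24.7% for 12-HETE, and 25% for vector and for ADAR1 p150, against 12.6%, 12.7%, 13.4% and 13.6%.

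With the replicate block, 57 members were called with 12-HETE, 44 with ADAR1 p150, 0 for vector against vehicle and 40 for the difference, so no count moved by over 1.5 times. The deviations of same-numbered replicates did not correlate over the genes tested, which cannot show whether these replicates shared a culture or batch. With the crossed replicate block, added after seeing the data, the counts were 57, 44, 0 and 41.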

Other observations

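The share of members called with 12-HETE is given by chromosome beside that of all genes tested there. It was highest on the X chromosome, with 3 of 7 members called (42.9%, all rose) against 25.8% of 93 genes tested (23.7% rose, 2.15% fell). It was 27.3% of 22 members on chromosome 6 (15.6% of all genes there) and 21.7% of 23 on chromosome 3 (14.7%), where 4 of the 5 called members fell. On chromosome 2 it was 0 of 26 members, against 10.7% of all genes (edgeR's quasi-likelihood test, with 23 of the 26 members at an unadjusted p under 0.05). No test between chromosomes was made.

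Gm51921, an lncRNA on chromosome 11, had the widest gap between replicates of any member. It had 306 and 113 counts in vehicle cells, 255 and 301 after 12-HETE, 324 and 173 in vector cells, and 307 and 198 under ADAR1 p150. Its difference between the vehicle replicates was 1.48 on the log2 scale, and its log2 fold changes were 0.22 and -0.28 (adjusted p = 0.56 and 0.442). Of 436 members, it was the 1 whose vehicle replicates differed by more than 2-fold, and in the other groups none did.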
